A study of Mus musculus with 16 samples.

Results

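Zinc is held at a low free level inside cells by 3 kinds of protein, and 10 mouse genes of these kinds were followed here in mammary tumor cells, out of the 33072 genes of the count table. They were 6 ZIP importers (Slc39a1, Slc39a6, Slc39a7, Slc39a8, Slc39a10 and Slc39a14), the ZnT exporters Slc30a1 and Slc30a5, and the metallothioneins Mt1 and Mt2. The genes were chosen by name with earlier results of these data known. Calls among them are therefore not those of a list made independently of the data. Each name matched 1 row of the table, so that all 10 were found. Slc39a8 was included because its response to treatment differed between the cell lines, so its values are given as a description without a test, and counts of genes past a threshold cover the other 9.

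The cells were 4T1, which spreads to distant organs in mice, and 67NR, which forms primary tumors but does not metastasize. Both lines come from 1 spontaneous mammary carcinoma of a BALB/c mouse, so each group stands for a single line and not for several tumors. Subconfluent cultures in DMEM with serum were incubated for 24 h with the vehicle DMSO or with 15 µM CIX, an inhibitor of the cytosolic phospholipase A2 α (cPLA2α). The 4 groups were vehicle treated 4T1, CIX treated 4T1, vehicle treated 67NR and CIX treated 67NR cells, with 4 biological replicates each and 16 samples in all. Samples are named by the number in their label, which ran from 1 to 16 over the whole series.

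ZIP transporters move zinc into the cytosol from outside the cell or from organelles, ZnT transporters move it out of the cytosol, and metallothioneins bind it through their many cysteines. The zinc finger protein MTF1 senses free zinc and binds metal response elements, short motifs in front of Mt1, Mt2 and Slc30a1, and so couples the level of zinc to its storage and export. In mammary epithelium zinc transporters are known for the supply of zinc to milk, and several ZIP genes have been studied in breast cancer.

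Expected counts summed to between 21715700 and 29450629 per sample, so that 3 counts, the smallest level taken as detected, stood for 0.102 to 0.138 CPM, the unit of counts relative to library size. CPM values below are scaled by the TMM method over all 16 samples. TPM, the unit that also corrects for the length of a gene, is used wherever 1 gene is set beside another. It was approximated with the mean length of the annotated transcripts of a gene, so an order of genes depends on these lengths. Both lines are labelled as mammary carcinoma. Of 8 epithelial markers, 6 reached a mean of 1 TPM in vehicle treated 4T1 cells, where they summed to 2692 to 3060 TPM, and 1 did so in vehicle treated 67NR cells, where they summed to 1.52 to 4.70 TPM. Krt5 was at or near 0 in both lines, and Krt14 was at 0.352 to 0.621 TPM in vehicle treated 4T1 cells. With CIX the epithelial sum was 2995 to 3200 TPM in 4T1 and 0.820 to 3.43 TPM in 67NR cells. Mesenchymal markers summed to 1409 to 1826 TPM with vehicle and 2631 to 3118 TPM with CIX in 4T1 cells, and to 4113 to 5151 TPM and 6593 to 7453 TPM in 67NR cells. The sum was thus higher in all CIX treated samples of both lines, and most of it was Vim, but single markers differed in direction. Vim rose with CIX in 4T1 cells by 1.24 ± 0.08 on the log2 scale (SE, adjusted p = 4.27e-05, limma-voom) and Twist1 by 0.92 ± 0.12 (adjusted p = 4.62e-04). In 67NR cells the log2 fold change was 0.58 ± 0.07 (adjusted p = 0.00134) for Vim and -0.76 ± 0.12 (adjusted p = 0.00425) for Pdgfrb. Of the epithelial markers in 4T1 cells, Epcam fell by 0.78 ± 0.08 (adjusted p = 1.28e-04). Krt7, Krt14, Krt18 and Krt19 were higher in CPM in all CIX treated than in all vehicle treated samples. Groups without overlap, in either direction, were found for 39.9% of all genes tested. The log2 fold change was 0.45 ± 0.10 (adjusted p = 0.00529) for Krt7 and 0.68 ± 0.14 (adjusted p = 0.00374) for Krt19. It was 0.14 ± 0.06 (adjusted p = 0.107) for Krt18, and Krt14 was too low to be tested. The groups overlapped for Krt8 (0.43 ± 0.16, adjusted p = 0.0534) and Cdh1 (-0.29 ± 0.11, adjusted p = 0.0592). The part of these marker changes in the CIX responses of the zinc genes was not tested. Leukocyte markers stayed at or below 0.854 TPM in sum and endothelial markers at or below 1.53 TPM in every sample.

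Promoter sequence was examined for Mt1, Mt2 and Slc30a1, the genes other than Slc39a8 whose levels were higher in all CIX treated than in all vehicle treated 67NR samples, and for Slc39a8, the gene with the opposite responses. The windows were taken from RefSeq (GRCm38.p6) and ran from 250 bases before to 50 bases after the annotated start. The gene coordinates given below are those of GENCODE M21, and their starts can differ. For Mt2 the RefSeq start lies before the start of these coordinates, so match positions hold for the RefSeq start only. The core of the metal response element was searched as TGCACNC and TGCGCNC on both strands, and matches, none of which overlapped another, are in capitals. The 3 windows on the forward strand of Mt2 (chr8:94172368-94172667), Mt1 (chr8:94178839-94179138) and Slc30a1 (chr1:191906531-191906830) were:
Mt2: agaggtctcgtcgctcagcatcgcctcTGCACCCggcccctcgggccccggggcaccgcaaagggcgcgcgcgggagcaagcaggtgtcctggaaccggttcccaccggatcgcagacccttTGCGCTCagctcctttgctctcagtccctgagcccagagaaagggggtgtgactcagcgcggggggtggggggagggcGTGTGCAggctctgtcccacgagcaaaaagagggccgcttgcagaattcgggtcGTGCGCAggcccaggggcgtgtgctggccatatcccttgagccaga
Mt1: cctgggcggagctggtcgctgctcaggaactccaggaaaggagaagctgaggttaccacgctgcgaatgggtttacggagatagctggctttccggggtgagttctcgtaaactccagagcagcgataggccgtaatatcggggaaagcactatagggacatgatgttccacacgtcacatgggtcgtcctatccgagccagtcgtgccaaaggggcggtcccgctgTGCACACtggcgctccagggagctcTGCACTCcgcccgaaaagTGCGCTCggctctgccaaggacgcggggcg
Slc30a1: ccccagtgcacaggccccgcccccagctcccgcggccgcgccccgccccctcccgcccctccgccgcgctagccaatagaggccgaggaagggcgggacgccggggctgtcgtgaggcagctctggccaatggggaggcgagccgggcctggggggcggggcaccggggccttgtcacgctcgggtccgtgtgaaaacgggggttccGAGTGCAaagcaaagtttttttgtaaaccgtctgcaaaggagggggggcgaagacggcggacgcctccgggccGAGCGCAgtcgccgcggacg

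RefSeq lists 2 start sites for Slc39a8, also on the forward strand, with the windows chr3:135825029-135825328 and chr3:135825407-135825706. They are shown because this gene was higher with CIX in 67NR cells, as the metallothioneins were, but lower with CIX in 4T1 cells:
Slc39a8, first start: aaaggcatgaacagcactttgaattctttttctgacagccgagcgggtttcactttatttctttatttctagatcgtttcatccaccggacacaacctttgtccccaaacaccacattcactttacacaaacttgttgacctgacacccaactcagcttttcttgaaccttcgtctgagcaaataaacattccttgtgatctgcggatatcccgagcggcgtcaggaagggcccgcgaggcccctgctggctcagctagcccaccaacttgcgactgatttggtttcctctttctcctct
Slc39a8, second start: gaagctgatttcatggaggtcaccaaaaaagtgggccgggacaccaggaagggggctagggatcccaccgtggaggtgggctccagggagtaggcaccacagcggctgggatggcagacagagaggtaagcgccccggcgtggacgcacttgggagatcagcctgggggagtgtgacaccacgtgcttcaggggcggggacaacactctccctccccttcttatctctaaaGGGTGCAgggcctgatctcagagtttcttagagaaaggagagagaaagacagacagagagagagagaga

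The window of Mt2 held 4 matches, which began at positions -223, -128, -50 and 5 counted from the start. The window of Mt1 held 3 matches, at -23, 3 and 21, and that of Slc30a1 held 2, at -43 and 31. The first window of Slc39a8 held 0 matches and the second held 1, at -19. Among 32851 promoter windows of the same length, 25.7% held at least 1 match, 7.11% at least 2, 1.97% at least 3 and 0.517% at least 4. A window with 1 match was therefore common, and Mt2 lay among the windows with most matches. Of the other genes, Slc30a5 held 1 match, and 0 were found in the windows of Slc39a1, Slc39a7 and both starts of Slc39a10. A match is a description of the letters in the window, and binding was not measured.

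**Figure D1:**
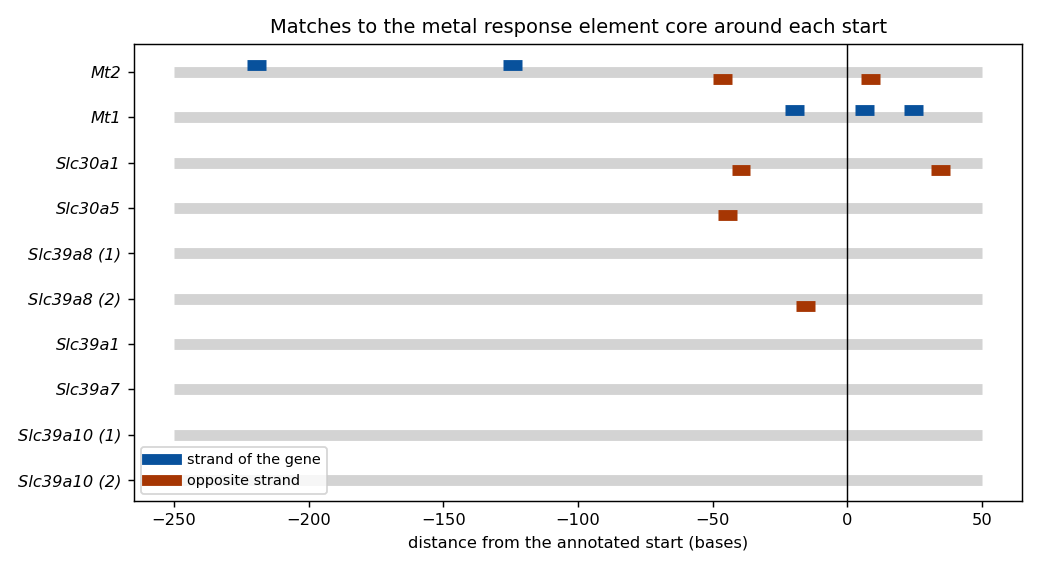
Positions of the matches to the metal response element core in the 10 promoter windows of 8 genes, in bases from the annotated start, with matches on the strand of the gene in blue and on the opposite strand in brown. Mt2 has 4 matches and Mt1 has 3, whereas the windows of Slc39a1, Slc39a7 and Slc39a10 have 0.

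Slc39a8 encodes ZIP8, an importer at the plasma membrane that carries manganese and cadmium as well as zinc. The gene lies at chr3:135825279-135888572 (GRCm38, forward strand). In vehicle treated 4T1 cells it gave 101, 92, 93 and 104 counts, and in CIX treated 4T1 cells 2, 3, 0 and 7 counts. In 67NR cells it gave 119, 105, 108 and 91 counts with vehicle and 188, 148, 159 and 154 counts with CIX. Thus all CIX treated 4T1 samples lay below all vehicle treated 4T1 samples, and all CIX treated 67NR samples lay above all vehicle treated ones. On the TMM scale the mean level was 4.11 ± 0.127 CPM (SD, n = 4) in vehicle treated and 0.123 ± 0.118 CPM in CIX treated 4T1 cells, where 3 of 4 CIX treated samples were at or under the 3 counts taken as detected. In 67NR cells the means were 4.38 ± 0.393 CPM after vehicle and 6.82 ± 0.543 CPM after CIX. The vehicle treated groups of the 2 lines overlapped. In RNA from whole cultures, fewer cells that express a gene and less RNA per cell cannot be told apart.

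The sum of counts was 390 with vehicle and 12 with CIX in 4T1 cells, a ratio of 34.6 in favour of vehicle once library size was taken into account. Its size is imprecise, since 7 of the 12 counts came from sample 16 and counting error alone spans 19.6 to 67.5 (95% interval). In 67NR cells the sums were 423 and 649, a ratio of 1.56 in favour of CIX. Both ratios describe the response for which the gene was chosen. Few words of 31 bases were shared with transcripts of other genes on the same strand (0.596%), so that the counts of Slc39a8 rest on sequence of its own.

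Genes of similar pattern were sought by the root mean square difference of centred log2 CPM over the 16 samples, among 12629 genes. The nearest to Slc39a8 was Disp2, with a difference of 0.79 on the log2 scale, followed by Gm43540 (0.81), Gstt4 (0.85), Gm17131 (0.86) and Bglap3 (0.86). Disp2 ranged from 1.08 to 1.92 CPM in vehicle treated and from 0 to 0.202 CPM in CIX treated 4T1 cells, and from 1.82 to 2.45 CPM and 3.47 to 6.49 CPM in the same order in 67NR cells. Gm43540, a processed pseudogene, lay within 0.129 to 0.786 CPM in CIX treated 4T1 cells and within 6.94 to 11.9 CPM in every other sample. Of the other zinc genes in this comparison the nearest was Slc30a5, at rank 1786 with a difference of 1.90.

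The ZIP importers other than Slc39a8 were at least 10 times more abundant per length than Slc39a8 in every group. Of these, 4 lie at chr3:90248172-90253612 (Slc39a1, forward strand), chr17:34028269-34031682 (Slc39a7), chr1:46807544-46892852 (Slc39a10) and chr14:70303469-70351425 (Slc39a14), the last 3 on the reverse strand, and Slc39a6 lies on chromosome 18. Slc39a7 encodes ZIP7, which releases zinc from the endoplasmic reticulum and Golgi, and it had the highest mean of the 10 genes in each of the 4 groups. Its mean was 357 ± 192 TPM in vehicle treated and 153 ± 26.1 TPM in CIX treated 4T1 cells, and 283 ± 232 TPM and 193 ± 41.3 TPM in 67NR cells. Slc39a14, which encodes ZIP14, an importer of zinc, manganese and iron, followed in both 4T1 groups at 116 ± 48.0 TPM and 90.8 ± 37.0 TPM. Neighbours in the order of mean levels overlapped from Slc39a7 down to Slc39a1 in vehicle treated 4T1 cells, but Slc39a7 lay above Slc39a10, Slc39a6 and Slc39a1 in every sample there. Slc39a14, Slc39a10, Slc39a6 and Slc39a1 each overlapped the other 3, so that their order was not resolved. The metallothioneins were placed differently in the 2 lines. Mt2 was at 10.1 ± 8.67 TPM with vehicle and 14.9 ± 12.8 TPM with CIX in 4T1 cells, and at 32.4 ± 6.79 TPM and 95.8 ± 14.7 TPM in 67NR cells. Mt1 was at 95.8 ± 11.6 TPM in CIX treated 67NR cells, so that by their means both metallothioneins came directly after Slc39a7 there, although both overlapped each other, Slc39a6 and Slc39a10, so that their place above these importers was not resolved. At the lower end, Slc30a1 and Slc39a8 were the 2 genes of lowest mean in each group, and they did not overlap each other in any group. Slc30a1 stood below Slc39a8 except in CIX treated 4T1 cells, where its mean was 0.505 ± 0.179 TPM and that of Slc39a8 was 0.0478 ± 0.0438 TPM.

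**Figure D2:**
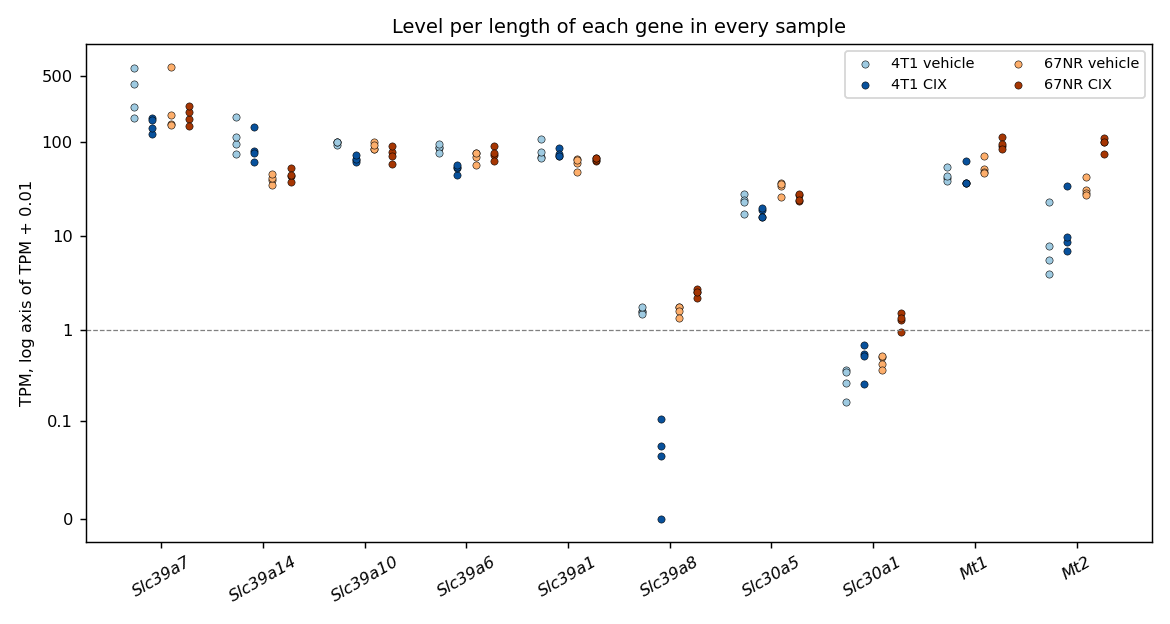
TPM of the 10 genes in each of the 16 samples on a log axis (of TPM + 0.01), coloured by group, with a dashed line at 1 TPM. Slc39a8 is at 1.50 to 1.74 TPM in vehicle treated and at most at 0.106 TPM in CIX treated 4T1 cells, and Slc30a1 lies below 1 TPM in all samples but 3 of the CIX treated 67NR group.

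CIX was compared with vehicle in the 4T1 samples to ask how the metastatic line responded to the inhibitor. With limma-voom, 1 of the 9 genes passed an adjusted p-value of 0.001, where 9.28% of all 11677 genes tested did. A gene with a TPM below 1 in more than 3 of the samples was left out, and 8 of the 9 remained. At the looser threshold of 0.05, 3 genes passed, all of them lower with CIX, against 20.8% of all genes. The median log2 fold change of the 8 was -0.29, beside -0.01 over all genes tested.

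The gene past the threshold was Slc39a6, which encodes ZIP6, an importer at the plasma membrane that pairs with ZIP10. It stood at 103, 104, 94.3 and 107 CPM in the vehicle treated 4T1 samples and at 56.7, 65.7, 69.5 and 71.1 CPM in the CIX treated ones. The groups did not overlap, which held for 39.9% of all genes tested. Slc39a6 fell by 0.66 ± 0.10 on the log2 scale (SE, n = 4 against 4, adjusted p = 9.36e-04). The adjusted p was 9.97e-04 with edgeR and 1.22e-08 with DESeq2, and between 0.00120 and 0.00452 when any 1 of the 8 samples was left out, so that the call was lost in each case while the log2 fold change stayed between -0.70 and -0.59.

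Slc39a10, which encodes ZIP10, was also lower in all CIX treated than in all vehicle treated 4T1 samples. It was at 167, 155, 176 and 162 CPM with vehicle and at 116, 107, 120 and 129 CPM with CIX. The log2 fold change was -0.50 ± 0.09 with an adjusted p of 0.00208, which misses the threshold. DESeq2 gave an adjusted p of 2.04e-06.

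Slc39a7 had the largest log2 fold change of the tested genes in 4T1 cells, -1.003 ± 0.36, with an adjusted p of 0.0497. It was at 240, 412, 637 and 172 CPM with vehicle and at 192, 129, 185 and 151 CPM with CIX, so that the groups overlapped. The vehicle treated samples 7 and 11 stood above the others. Sample 13, a vehicle treated 67NR sample at 708 CPM, stood apart in the same way from the other 3 of its group at 161 to 204 CPM. Without these 3 samples, a choice made after the values were seen, the log2 fold change in 4T1 cells was -0.34 ± 0.20 with an adjusted p of 0.236, and that in 67NR cells turned from -0.30 to 0.21.

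The 5 genes nearest to Slc39a7 in pattern, looked for after its values were seen, were Cnn3, Nras, Naa60, the pseudogene Gm13736 and Elk4, with differences of 0.24 to 0.27 on the log2 scale. All 5 were at their highest in samples 7, 11 and 13. Nras was at 107 to 370 CPM in vehicle treated 4T1 cells and at 86.5 to 160 CPM in CIX treated 4T1 cells. Of the transcript sequence of Slc39a7, 76.8% of the words of 31 bases also occurred in Gm20427 on the same strand, a gene that was not analysed here, so reads of the 2 could not be told apart by most of this sequence. The part of these samples in the response of Slc39a7 was not tested beyond leaving them out.

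**Figure D3:**
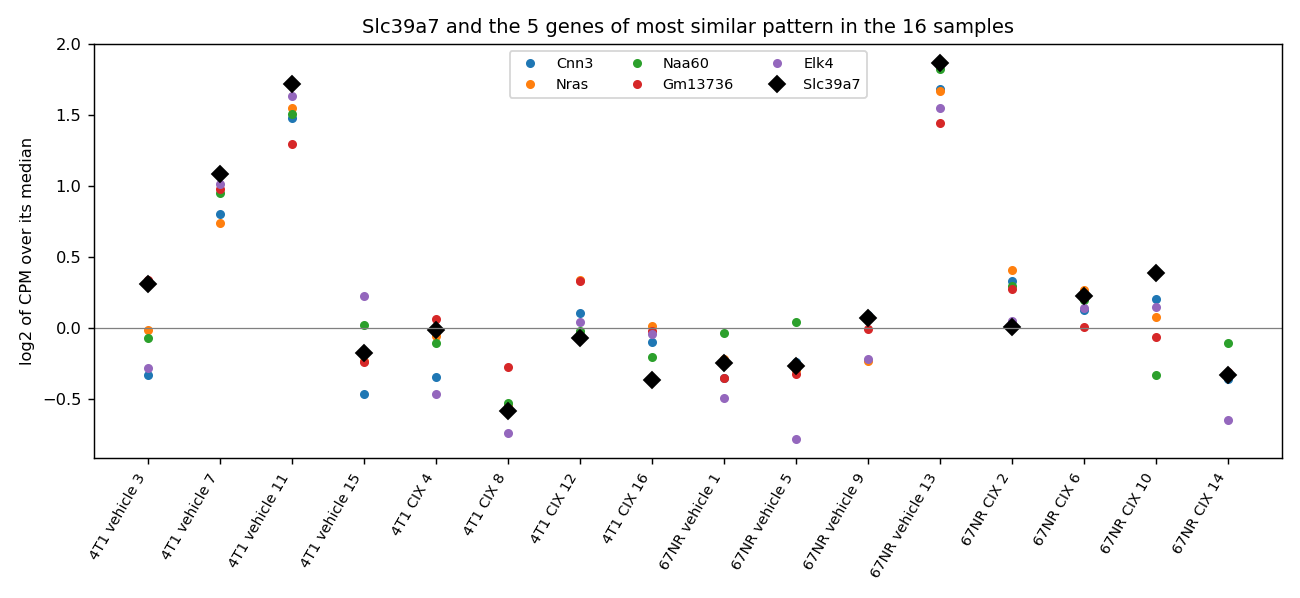
Log2 of CPM over its median across the 16 samples for Slc39a7 (black diamonds) and the 5 genes nearest in pattern (coloured points), 1 column per sample. All 6 genes are high in vehicle treated 4T1 samples 7 and 11 and in vehicle treated 67NR sample 13.

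The importers Slc39a1 and Slc39a14 did not pass any threshold for CIX in 4T1 cells. Slc39a1, which encodes the plasma membrane importer ZIP1, had a log2 fold change of -0.00 ± 0.15 with an adjusted p of 0.988. Vehicle treated sample 3 was at 193 CPM and the other 3 of its group at 123 to 132 CPM, and without sample 3 the log2 fold change was 0.15. For Slc39a1, 27.7% of the words of 31 bases were shared, mostly with the pseudogene Slc39a1-ps, to which at most 3 counts were assigned in any sample. Slc39a14 was at 213, 108, 88.9 and 122 CPM with vehicle and at 177, 96.1, 76.9 and 93.2 CPM with CIX. Samples 3 and 4 were the highest of their groups, and the log2 fold change was -0.28 ± 0.31 with an adjusted p of 0.491.

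Of the exporters, Slc30a5 (chr13:100802648-100833427, reverse strand) encodes ZnT5, which loads zinc into the Golgi. It was at 34.0 to 53.4 CPM with vehicle and at 31.8 to 39.6 CPM with CIX in 4T1 cells, with a log2 fold change of -0.30 ± 0.15 (adjusted p = 0.140). Slc30a1, which encodes ZnT1, the exporter at the plasma membrane, was below 1 TPM in all 4T1 samples and was left out by the filter in each of the 4 comparisons. It gave 20, 14, 19 and 8 counts with vehicle and 15, 30, 46 and 31 counts with CIX, and the groups overlapped.

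The metallothioneins gave no call in 4T1 cells. Mt1 was at 31.1, 23.7, 23.1 and 23.4 CPM with vehicle and at 38.3, 21.6, 22.5 and 22.0 CPM with CIX, a log2 fold change of -0.01 ± 0.20 (adjusted p = 0.979). Mt2 was at 7.78, 1.35, 1.98 and 2.55 CPM with vehicle and at 12.2, 3.09, 2.57 and 3.50 CPM with CIX, a log2 fold change of 0.63 ± 0.61 (adjusted p = 0.436). In both genes sample 3 was the highest with vehicle and sample 4 the highest with CIX. Without samples 3 and 4, a choice made after the values were seen, the remaining CIX treated samples lay above the remaining vehicle treated samples for Mt2, and the log2 fold change was 0.66 ± 0.28 with an adjusted p of 0.0944. For Mt1 it was -0.08 ± 0.10 without them.

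**Figure D4:**
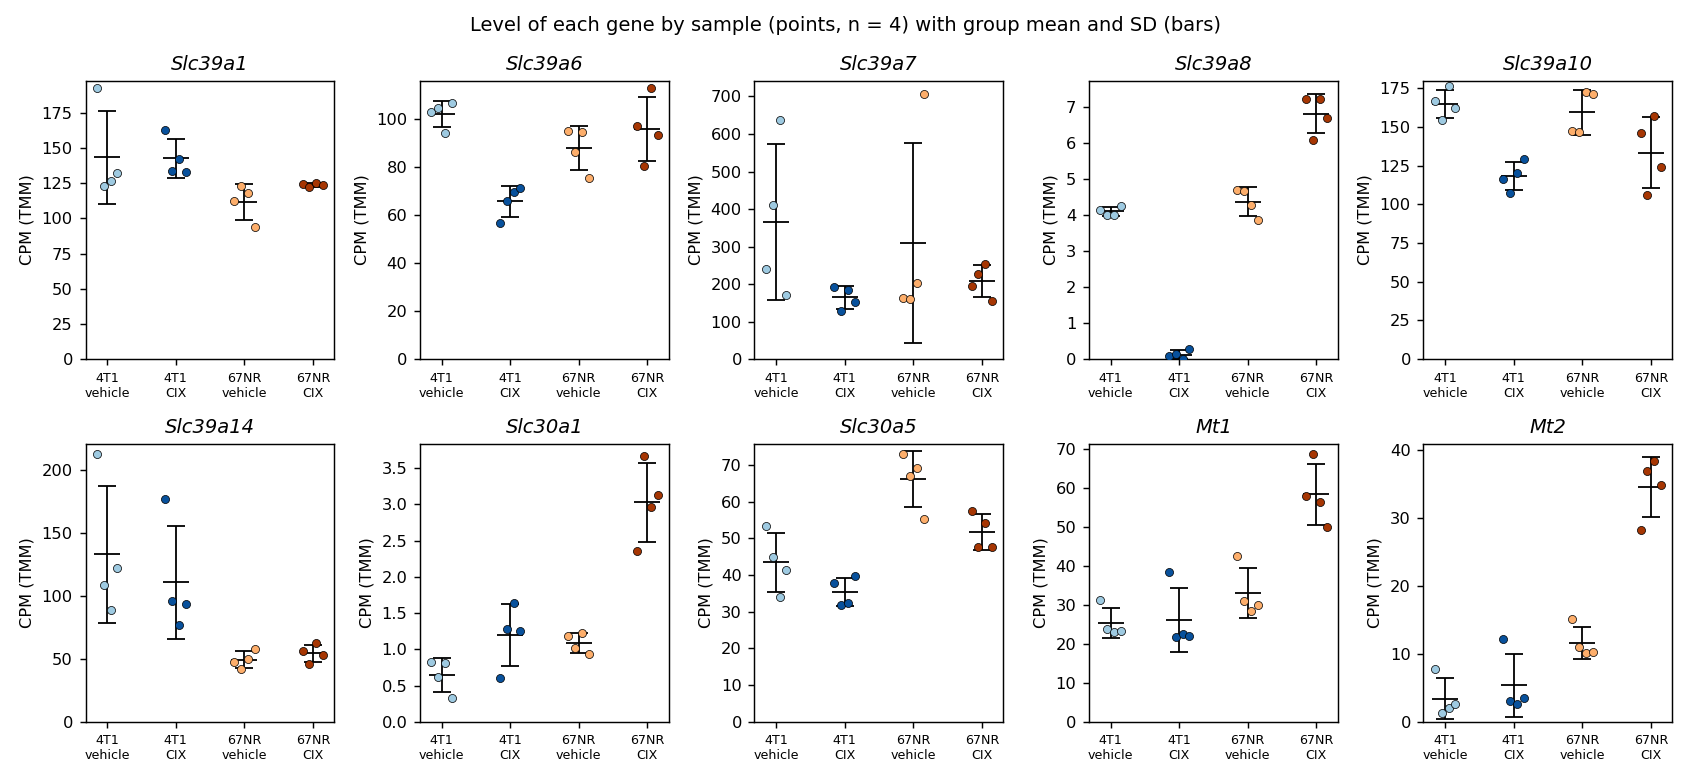
CPM of each of the 10 genes in the 16 samples, with the mean and SD of each group of 4, on axes that start at 0. Mt1, Mt2 and Slc30a1 are higher in all CIX treated than in all vehicle treated 67NR samples, whereas Slc39a6 and Slc39a10 are lower in all CIX treated than in all vehicle treated 4T1 samples.

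The same comparison was made in 67NR cells. With limma-voom, 1 of the 9 genes passed an adjusted p-value of 0.001, where 0.389% of 11583 genes did, and 8 of the 9 passed the filter. At 0.05, 2 genes passed as higher (8.5% of all genes) and 1 as lower (9.25%). The median log2 fold change of the 8 was 0.11, beside -0.01 over all genes tested. The vehicle treated samples of each line are the controls of these comparisons and also enter the comparison of the lines, so results for the same gene are not independent of each other.

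The gene past the threshold was Mt2, at chr8:94172664-94173568 on the forward strand. It was at 15.1, 11.0, 10.1 and 10.3 CPM in the vehicle treated 67NR samples and at 28.2, 36.8, 38.3 and 34.8 CPM in the CIX treated ones. The groups did not overlap, which held for 23.3% of all genes tested. Mt2 rose 2.93-fold, with a log2 fold change of 1.55 ± 0.15 (adjusted p = 9.06e-04). The adjusted p was 9.12e-04 with edgeR and 4.61e-18 with DESeq2. When each of the 8 samples was omitted in turn, it passed 0.001 once, with log2 fold changes between 1.49 and 1.68, and in a common fit of all 16 samples it was 0.00367.

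Mt1, the neighbour of Mt2 at chr8:94179082-94180327, was at 42.4, 31.04, 28.4 and 29.9 CPM with vehicle and at 57.9, 68.8, 56.4 and 50.1 CPM with CIX. All CIX treated samples lay above all vehicle treated ones, and sample 1 was the highest of the vehicle group in both genes. The log2 fold change of Mt1 was 0.81 ± 0.14 with an adjusted p of 0.00657, which passes 0.05 but not 0.001, and DESeq2 gave 9.18e-06. With the counts of both genes summed, the log2 fold change was 1.05 ± 0.13 and the adjusted p 0.00183. Mt2 thus had the larger fold change of the pair.

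The ratio of Mt2 to Mt1 in TPM, looked at after the values were seen, was 0.580 to 0.599 in the 4 vehicle treated 67NR samples and 0.817 to 1.17 in the CIX treated ones. In 4T1 cells it was 0.0949 to 0.420 with vehicle and 0.191 to 0.537 with CIX, and these overlapped. Mt2 was therefore the minor metallothionein per length in every 4T1 and every vehicle treated 67NR sample. In CIX treated 67NR cells neither gene was the minor one in all samples. The ratio depends on the mean transcript lengths used, 755.7 bases for Mt1 and 449.5 bases for Mt2. In CPM the means in CIX treated 67NR cells were 58.3 for Mt1 and 34.5 for Mt2. No word of 31 bases of Mt1 was shared with another gene, and 0.524% of those of Mt2 were shared on the same strand. On the opposite strand 57.6% of the words of Mt2 occur in Gm45774, which was not analysed here. The libraries were stranded, and the strand setting of the quantification was not given in the sources used here.

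Slc30a1 (chr1:191906767-191913247, forward strand), the third gene of the group known to be driven by MTF1, gave 30, 23, 31 and 22 counts with vehicle and 61, 89, 65 and 72 counts with CIX in 67NR cells. The mean level was 1.09 ± 0.138 CPM (SD) in vehicle treated and 3.03 ± 0.544 CPM in CIX treated cells, and the groups did not overlap, as was the case for 23.3% of all genes tested. An exact two-sided permutation test of the mean log2 CPM, added because the filter left this gene out, gave p = 0.0286, the smallest that 4 against 4 samples allow, and 0.0429 after adjustment over 3 comparisons. In a fit without the filter the log2 fold change was 1.43 ± 0.23 with an adjusted p of 0.00622 with limma-voom. In 4T1 cells the same fit gave 0.92 ± 0.43 (adjusted p = 0.155), and the exact test gave p = 0.114. On the opposite strand 8.38% of the words of Slc30a1 occur in 1700034H15Rik.

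The importers other than Slc39a8 gave no call for CIX in 67NR cells, also at 0.05. Slc39a6 was at 94.97, 86.4, 94.5 and 75.3 CPM with vehicle and at 97.1, 80.6, 113 and 93.3 CPM with CIX, a log2 fold change of 0.10 ± 0.11 (adjusted p = 0.566). Slc39a10 had a log2 fold change of -0.29 ± 0.13 (adjusted p = 0.163), Slc39a1 of 0.14 ± 0.08 (adjusted p = 0.260), Slc39a14 of 0.13 ± 0.13 (adjusted p = 0.544) and Slc39a7 of -0.30 ± 0.45 (adjusted p = 0.695). In each of these 5 importers the CIX and vehicle groups overlapped. The exporter Slc30a5 was at 55.3 to 72.9 CPM with vehicle and at 47.7 to 57.5 CPM with CIX, with a log2 fold change of -0.37 ± 0.10 (adjusted p = 0.0338).

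**Figure D5:**
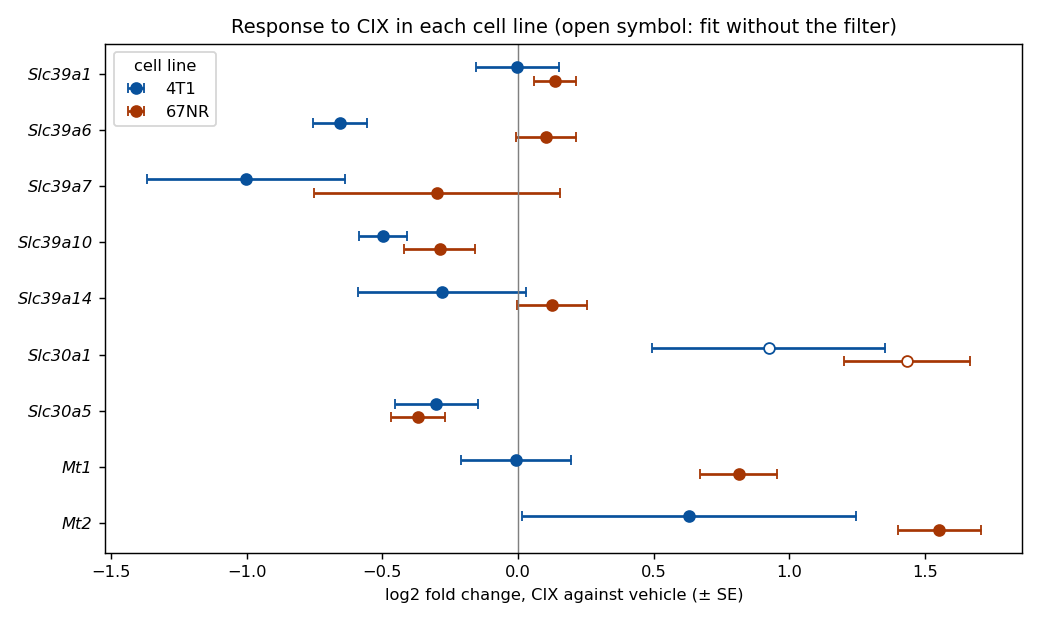
Log2 fold change of CIX against vehicle with its SE for the 9 genes other than Slc39a8, in 4T1 (blue) and 67NR cells (brown), with open symbols for Slc30a1, which was fitted without the filter on low values. Slc39a6 is at -0.66 in 4T1 and 0.10 in 67NR cells, and Mt1 is at -0.01 and 0.81.

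The difference between the 2 responses was tested as an interaction over all 16 samples. With limma-voom, 0 of the 9 genes passed 0.001, where 7.86% of 12629 genes did, and 8 of the 9 passed the filter. Of these, 2 had an unadjusted p below 0.05 (39.1% of all genes), edgeR called 0 (8.02%) and DESeq2 called 1 (15.7%). The median difference of the 8 was -0.56 on the log2 scale, beside -0.02 over all genes tested.

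Slc39a6 came nearest to the threshold, with a response in 4T1 minus that in 67NR cells of -0.76 ± 0.15 on the log2 scale (adjusted p = 0.00155). DESeq2 gave an adjusted p of 2.26e-05 for it, and without the CIX treated 67NR sample 6 limma-voom gave 8.26e-04. Of the 16 fits with 1 sample left out, only 1 passed 0.001, and the adjusted p reached 0.00407. Mt1 followed with -0.82 ± 0.26 (adjusted p = 0.0237), which was -0.91 ± 0.20 (adjusted p = 0.00342) without samples 3 and 4. For Mt2 the difference was -0.93 ± 0.60 (adjusted p = 0.270), and for the summed counts of Mt1 and Mt2 it was -0.99 ± 0.30 (adjusted p = 0.0198). Slc39a10, which was lower with CIX in 4T1 cells, had a difference of -0.21 ± 0.15 (adjusted p = 0.343), and Slc30a5 one of 0.06 ± 0.19 (adjusted p = 0.840). For Slc30a1 the fit without the filter gave a difference of -0.52 with an adjusted p of 0.546, so that its higher level with CIX was not shown to be particular to 67NR cells.

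The vehicle treated lines were compared to describe the genes before treatment. With limma-voom, 0 of the 9 genes passed 0.001, where 40% of 11058 genes did, and 8 of the 9 passed the filter. Of these, 5 had an unadjusted p below 0.05 (70.1% of all genes), edgeR called 0 (38.9%) and DESeq2 called 3 (52%). At an adjusted p of 0.05 Slc39a14 was higher (33.3% of all genes) and Mt2 and Slc30a5 were lower (34.1%) in 4T1 cells. The median log2 fold change of the 8 was 0.13, beside -0.01 over all genes tested.

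Slc39a14 was at 213, 108, 88.9 and 122 CPM in vehicle treated 4T1 cells and at 47.2, 42.2, 49.6 and 58.1 CPM in vehicle treated 67NR cells. The lines did not overlap, which held for 61.6% of all genes tested. The log2 fold change was 1.35 ± 0.26 (adjusted p = 0.00135). Without the vehicle treated 4T1 sample 3 it was 1.14 ± 0.15 and the adjusted p was 2.39e-04, and without sample 11 it was 1.57 ± 0.24 and the adjusted p was 5.45e-04. Of the 8 fits with 1 sample left out only these 2 passed 0.001, and the adjusted p reached 0.00431.

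Mt2 was lower in all 4T1 than in all 67NR vehicle treated samples, with a log2 fold change of -2.08 ± 0.42 (adjusted p = 0.00171). Sample 3, the highest 4T1 sample, moved this value, which was -2.56 ± 0.29 with an adjusted p of 9.30e-05 without it. Of the 8 fits with 1 sample left out, only 1 passed 0.001, and the adjusted p reached 0.00741. Mt1 overlapped between the lines and had a log2 fold change of -0.38 ± 0.16 (adjusted p = 0.0543). Slc30a5 was at 34.0 to 53.4 CPM in 4T1 and at 55.3 to 72.9 CPM in 67NR cells, a log2 fold change of -0.63 ± 0.14 (adjusted p = 0.00359). Slc30a1 was at 0.328 to 0.824 CPM in 4T1 and at 0.935 to 1.23 CPM in 67NR cells, and the lines did not overlap, which held for 61.6% of all genes tested. The exact two-sided permutation test gave p = 0.0286, the smallest that 4 against 4 samples allow, or 0.0429 after adjustment over 3 comparisons. In the fit without the filter the log2 fold change was -0.86 ± 0.35 with an adjusted p of 0.0648 with limma-voom, which misses 0.05.

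Slc39a1, Slc39a6, Slc39a7 and Slc39a10 overlapped between the vehicle treated lines. Their log2 fold changes were 0.33 ± 0.15 (adjusted p = 0.0842) for Slc39a1, 0.21 ± 0.09 (adjusted p = 0.0572) for Slc39a6, 0.37 ± 0.55 (adjusted p = 0.573) for Slc39a7 and 0.04 ± 0.09 (adjusted p = 0.716) for Slc39a10. The lines also differed in the epithelial and mesenchymal markers given above, and the part of this difference in the levels of Slc39a14, Mt2 and Slc30a5 was not tested.

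The other genes of the same families and of related metals were counted for comparison. Of all genes tested, the shares past an adjusted p of 0.001 with limma-voom are those given above, namely 9.28% for CIX in 4T1, 0.389% for CIX in 67NR, 7.86% for the difference and 40% between the lines. With edgeR the shares for CIX were 8.79% in 4T1 and 0.397% in 67NR cells, and with DESeq2 they were 26.5% and 8.98%. An unadjusted p below 0.05 was found for 51.1% of all genes for CIX in 4T1 and for 32.8% in 67NR cells. Of 8 other ZIP importers, 5 were tested for CIX in 4T1 cells, 4 in 67NR cells and 5 for the difference, and 0 passed 0.001 in each with limma-voom or edgeR. Of them 2, 1 and 2 had an unadjusted p below 0.05, and DESeq2 called 1, 1 and 0, in the same order. Of 8 other ZnT exporters, 4 were tested in each comparison and 0 passed 0.001 with limma-voom or edgeR. An unadjusted p below 0.05 was found for 2 for CIX in 4T1 and for 1 in each of the other comparisons, and DESeq2 called 1 between the lines and 0 elsewhere. Mt3 and Mt4 were left out by the filter throughout, with mean levels of at most 0.0635 TPM. Of 4 genes of metal sensing and zinc handling outside the families, 3 were tested and 0 passed in any comparison with limma-voom or edgeR. An unadjusted p below 0.05 was found for 1 for CIX in 4T1, 2 between the lines and 0 in the others, and DESeq2 called 1 for CIX in 4T1 and 0 in the others. Mtf1, which encodes the sensor itself, had mean levels between 10.4 and 12.7 TPM, and its log2 fold change with CIX was -0.17 ± 0.13 (adjusted p = 0.330) in 4T1 and -0.11 ± 0.13 (adjusted p = 0.617) in 67NR cells.

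Between the vehicle treated lines 1 of 4 tested other ZIP importers passed 0.001, Slc39a3, which was lower in 4T1 cells with a log2 fold change of -2.10 ± 0.20. Slc39a4, chosen after its values were seen, was at 142 to 216 TPM in vehicle treated 4T1 cells and at 0 to 0.392 TPM in vehicle treated 67NR cells. It encodes ZIP4, the importer known from the intestine, and per length it was above Slc39a14 in the mean of both 4T1 groups. Slc39a4 was not among the tested genes, because the filter drops any gene below 1 TPM in every sample of 1 line. In the fit without the filter its log2 fold change between the vehicle treated lines was 10.94 ± 0.66 (adjusted p = 3.16e-07, limma-voom). This size rests on 0 to 12 counts in vehicle treated 67NR cells. The shares of all genes between the lines likewise do not cover genes dropped in this way.

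Of 9 copper genes, 8 were tested and 6 passed 0.001 between the vehicle treated lines, where 40% of all genes did. Slc31a1, the copper importer, Atp7a, a copper pump, and Sod1 were higher in 4T1 cells, with log2 fold changes of 1.33, 1.16 and 0.52. The copper chaperones Atox1 and Ccs and the regulator Commd1 were lower, with -0.97, -0.87 and -1.27. Commd1 also rose with CIX in 4T1 cells (log2 fold change 1.20 ± 0.12, adjusted p = 1.25e-04), and its response differed between the lines by 1.37 ± 0.13 (adjusted p = 5.91e-06). In 67NR cells 0 of the 8 passed for CIX with limma-voom, edgeR or DESeq2, and 0 had an unadjusted p below 0.05. Of the 6 carriers of iron and manganese, 5 were tested between the lines and 4 passed, beside the same 40% of all genes. The transferrin receptor Tfrc was higher in 4T1 cells at 3.17, and Slc11a2, Tmem165 and Steap3 were lower at -1.10, -0.95 and -1.32 on the log2 scale. For CIX in either line and for the difference, 0 of the carriers passed 0.001 with limma-voom or edgeR. In 4T1 cells 5 had an unadjusted p below 0.05 and DESeq2 called 1, and in 67NR cells and for the difference 2 had an unadjusted p below 0.05 and DESeq2 called 0. The shares of all genes with an unadjusted p below 0.05 were 51.1%, 32.8% and 39.1% in the same order.

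The genes nearest to Mt1 in pattern over the 16 samples were Spry2 (0.18 on the log2 scale), Mvk (0.24), Slc22a4 (0.24), Trib1 (0.25) and Hmga1b (0.26). Spry2 ranged from 18.7 to 26.9 CPM in vehicle treated and from 18.2 to 28.4 CPM in CIX treated 4T1 cells, and from 27.3 to 33.3 CPM and 48.3 to 53.8 CPM in 67NR cells. Mt2 was not among them, at rank 9394 of 12629 genes with a difference of 1.05, and the nearest of the 10 genes was Slc30a5 at rank 1696.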

How the data were processed

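RNA of 16 cultures was sequenced from stranded mRNA libraries. Per the labels and the paper's methods, the authors quantified reads with Salmon (0.12 in the submitters' processing notes), summed transcripts to genes and deposited expected counts, without normalization. The notes list GRCh38 as the build, but all identifiers are of mouse genes. Only 0.0436% of values above 0 were whole (within 1e-06), so the deposited counts were rounded. Annotation was GENCODE M21 (GRCm38), which held 32911 of 33072 genes. TPM was approximated from counts and mean transcript length. The filter dropped a gene that was under 1 TPM in over 3 samples of the comparison (in both lines for the interaction).

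The test was limma-voom with TMM (limma 3.58.1, edgeR 4.0.16, R 4.3.3) at a Benjamini-Hochberg adjusted p below 0.001 over all genes, on 8 samples per comparison and 16 for the interaction. The 10 genes and all gene lists were chosen with earlier results of these data known. All 10 were named, with the genes of other lists called in at least 1 comparison (at most 12) and the 5 genes nearest in pattern to Slc39a8 and Mt1. Alternatives were edgeR's quasi-likelihood test, DESeq2 1.42.0, its size factors, no scaling, other filters, a threshold of 0.05, quality weights, a common fit, the sum of Mt1 and Mt2, and leaving out samples. Scripts were tested on simulated data. No 2 replicates were copies: their counts differed by at least 12.6 in chi-square per gene. Words of 31 bases shared between transcripts were counted. The exact permutation test used scipy 1.17.1. The floor of 3 counts covers counting error only.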

Additional observations from a re-analysis of the deposited data

Results flagged for a closer look

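Slc39a8 was lower in every CIX treated than in every vehicle treated 4T1 sample and higher in every CIX treated than in every vehicle treated 67NR sample. The fit without the filter put the difference of the responses, 4T1 minus 67NR, at -6.03 on the log2 scale, a value that depends on how the near absent counts in CIX treated 4T1 cells are treated. This difference was not tested, because the gene was chosen for it.

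Of 40 groups of 4 samples (10 genes in 4 groups), 5 had a sample whose gap to the nearest other exceeded Dixon's critical value of 0.829 relative to the range, where chance gives about 2. Slc39a1 was at 193 CPM in vehicle treated 4T1 sample 3, with the others at 123 to 132 CPM. Mt1 was at 31.1 CPM in the same sample, with the others at 23.1 to 23.7 CPM. In CIX treated 4T1 sample 4, Mt1 was at 38.3 CPM beside 21.6 to 22.5 CPM, and Mt2 at 12.2 CPM beside 2.57 to 3.50 CPM. Slc39a7 was at 708 CPM in vehicle treated 67NR sample 13, beside 161 to 204 CPM. The causes were not tested.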

How the results depend on the processing

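No paired analysis was made, because each replicate number was carried by only 1 sample and the labels do not say which samples form a set. The numbers repeat the order vehicle treated 67NR, CIX treated 67NR, vehicle treated 4T1 and CIX treated 4T1 cells through the series. If neighbouring numbers do form sets, the unpaired fits leave differences between the sets in their error. Among the 9 genes, the numbers past the threshold were small. Apart from leaving out 1 sample, 5 of 11 alternatives left the count unchanged for CIX in 4T1, 5 of 10 in 67NR, 7 of 10 for the difference and 2 of 11 between the lines. For CIX in 4T1 cells the count was 1. It was 3 at an adjusted p below 0.05, 2 with DESeq2 and with sample quality weights, 0 without a filter, and 0 without samples 7, 11 and 13 or without samples 3 and 4 (both chosen after seeing the data). For CIX in 67NR cells the count was 1, and it was 3 at 0.05, 2 with DESeq2, and 0 without scaling, in the common fit or without sample 13. For the difference it was 0, and it was 2 at 0.05 and 1 with DESeq2 or quality weights. Between the vehicle treated lines it was 0, and it was 3 at 0.05, with DESeq2, with quality weights or in the common fit, 1 without scaling, without a filter, with the stricter filter of 5 TPM or without samples 7, 11 and 13, and 2 without samples 3 and 4. With 1 sample left out at a time the counts were 0 to 0 in 4T1 cells, 0 to 1 in 67NR cells, 0 to 1 for the difference and 0 to 2 between the lines.

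Over all genes, the numbers called in 4T1 cells (1084) were 4982 at 0.05, 3095 with DESeq2, 2522 with quality weights, 2680 in the common fit, 63 without samples 7, 11 and 13 and 286 to 1046 with 1 sample left out. In 67NR cells (45) they were 2056, 1040, 247, 150, 15 and 0 to 70 in the same order. For the difference (993) they were 3701 at 0.05, 1981 with DESeq2, 1914 with quality weights, 435 without the 3 samples and 652 to 1071 with 1 left out. Between the lines (4422) they were 7456 at 0.05 and 4107 to 4922 with 1 left out.

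Of 660 values of single genes under the alternatives, 582 kept direction and side of the threshold, 33 gained it, 21 lost it and 24 changed sign, all of them uncalled. In 4T1 cells Slc39a1 (-0.00) was 0.057 without a filter, 0.048 with quality weights, 0.0035 in the common fit, 0.10 without samples 3 and 4, and -0.071 to 0.15 with 1 sample left out. Mt1 (-0.01) was 0.028 with edgeR, 0.021 with DESeq2, 0.053 without a filter, 0.064 summed with Mt2, and -0.21 to 0.10 with 1 left out. Mt2 (0.63) was -0.083 without samples 7, 11 and 13. In 67NR cells Slc39a7 (-0.30) was 0.084 with quality weights, 0.21 without samples 7, 11 and 13, and -0.51 to 0.21 with 1 left out. With 1 sample left out, the difference ranged from -0.21 to 0.0077 for Slc39a1 and from -0.048 to 0.17 for Slc30a5, and Slc39a10 between the lines from -0.043 to 0.11. The causes were not tested. Depth limits Slc39a8 in CIX treated 4T1 cells, which lies near the smallest level taken as detected, whereas Slc30a1 gave 8 to 89 counts.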

Other observations

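In samples 1, 3 and 4, the lowest numbered samples of vehicle treated 67NR, vehicle treated 4T1 and CIX treated 4T1 cells, Mt1 and Mt2 were the highest of their groups, whereas in sample 2, the lowest numbered of the CIX treated 67NR group, Mt1 was the second highest at 57.9 CPM and Mt2 the lowest at 28.2 CPM. The labels do not say whether neighbouring numbers share a day or a batch, so no fit with such a term was made.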
